A study of Mus musculus with 96 samples.

Results

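Hepatocyte uptake transporters are the carriers of the blood-facing (sinusoidal) membrane through which bile salts, steroid conjugates, prostaglandins, carnitine and drugs enter the liver cell. The 9 genes described here were listed by name and role: Slco1a1, Slco1a4, Slco1b2, Slco2a1 and Slco2b1 of the organic anion transporting polypeptides, the sodium-dependent bile salt carrier Slc10a1, and Slc22a5, Slc22a7 and Slc22a26 of the SLC22 family. All 9 of 9 were measured, out of 18193 genes in all, each represented by its brightest probe set. Liver RNA of CD-1 mice, an outbred stock, was measured on 96 single-colour expression arrays. Female and male mice received PB in the diet at 0 (the controls), 0.15, 1.5, 15, 75 and 150 mg/kg-day, for either 2 or 7 days, which makes 24 groups of 4 arrays, and dose 0 of the same sex and day was the control of each dose. The series asked how early events of liver tumour formation through the receptor CAR depend on dose. The labels do not spell out PB, which in work on CAR commonly means phenobarbital, and the sample titles give ppm with the numbers that the design text gives as mg/kg-day. Doses are given below as in the design text, and the conflict was not resolved. The labels give no age and do not say whether the 4 arrays of a group came from 4 mice, so every p-value measures the spread between these samples only.

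Uptake carriers decide which compounds reach the enzymes inside the hepatocyte. Slc10a1 takes up conjugated bile salts with sodium, while the Slco carriers exchange organic anions such as bilirubin, steroid sulfates and many drugs. Slc22a5 carries carnitine, which fatty acid oxidation needs, and Slc22a7 carries small organic anions. In mouse liver many such genes differ between the sexes, a pattern known to follow the secretion of growth hormone, which differs between males and females and is relayed by STAT5b. CAR, once activated, induces Cyp2b10 and other genes of drug disposition.

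Values are on the log2 scale, so a difference of 1 is a doubling, and arrays give no counts. Array medians lay between 5.35 and 5.44 and the median correlation of an array with the others between 0.985 and 0.992. Xist, expressed from the inactive X chromosome, was at least 12.003 on the 48 female arrays and at most 5.89 on the 48 male arrays, so no array went against its sex label. Cyp2b10 was 13.58 ± 0.03 (SD, n = 4) in females at 150 on day 2, against 8.15 ± 0.80 at dose 0, and 13.57 ± 0.11 in males at 150 on day 2, against 7.46 ± 0.39 at dose 0. In the same 2 comparisons Cyp2c55 rose by 6.65 in females and 6.03 in males. Cyp3a11 hardly moved, by 0.15 in females and 0.13 in males (limma, adjusted p = 0.0727 and 0.152). Its change at 150 averaged over sexes and days was 0.12 (adjusted p = 0.000169). Cyp3a11 already stood at 14.27 in females and 14.36 in males at dose 0 on day 2, near 14.97, the highest value of any probe set. How large a rise could show at such a level was not tested. The arrays labelled male, day 2, 15, replicate 1 and male, day 2, 75, replicate 1 went against their dose labels: Cyp2b10 was 13.66 on the first, where the other 3 arrays of its group ran from 11.07 to 11.29, and 10.98 on the second, where the others ran from 13.19 to 13.36. Both were kept where the labels put them. Whether the 2 were exchanged was not tested, and the values at 15 and 75 in males on day 2 depend on it, so these are also given without both arrays. The tissue matched its label by its markers, with Alb at 14.80 and Ttr at 14.64 on average over all arrays.

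Most of the carriers differed between the sexes. Over all doses and days, 8 of the 9 genes differed between females and males (limma, adjusted p under 0.05), where 41.4% of all genes were called. Slc22a26, Slco1a4, Slc22a5, Slc22a7, Slc10a1 and Slco2b1 were higher in females, and Slco1a1 and Slco2a1 were lower in females. Slc22a26 stood 16.4-fold higher in females, Slco1a4 1.77-fold higher and Slco1a1 1.69-fold lower; the other 5 called differences were between 1.07-fold and 1.31-fold. The smallest of these, 1.07-fold for Slco2b1, was not called with the mean of its probe sets (limma, adjusted p = 0.292). Slco1b2 was not called, with a difference of -0.05 (95% interval -0.15 to 0.05; adjusted p = 0.472). At dose 0 alone, 3 of 9 were called on day 2, against 2.06% of all genes, and 4 of 9 on day 7, against 6.71%. Of these, the day 7 call of Slco1a1, at -0.92 (adjusted p = 0.0476), held without 2 of the 8 arrays and not with only the arrays compared (0.0521) or the trended and robust variance (0.0559).

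**Figure D1:**
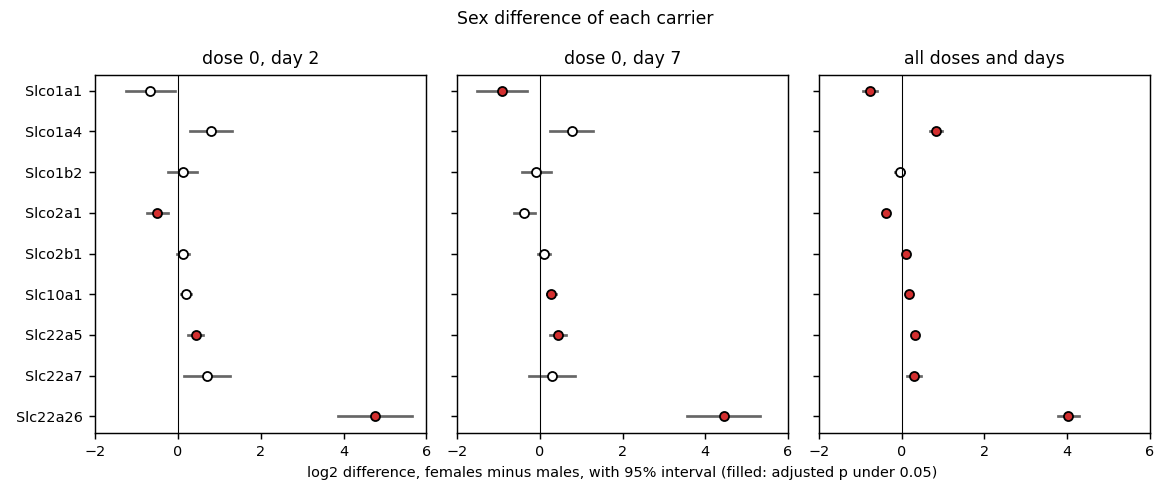
Log2 difference of each of the 9 carriers, females minus males, at dose 0 on day 2, at dose 0 on day 7 and averaged over all doses and days. Points are limma estimates with 95% intervals, and filled points have an adjusted p under 0.05. Slc22a26 lies far to the right in all 3 panels (4.76, 4.44 and 4.04), whereas the other genes lie within 1 log2 unit of 0.

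Markers of other liver cells also differed between the sexes. Over all doses and days, 10 of 10 Kupffer cell and macrophage markers, 9 of 10 stellate cell markers and 6 of 10 endothelial markers were higher in females, as were 4 of 8 lymphocyte markers, and no marker of these 4 lists was lower. Of 8 bile duct markers, 1 was higher (Prom1) and 1 lower (Sox9) in females, and 6 were not called. Of 8 hepatocyte markers, 3 were higher and 2 lower in females. In the same comparison 41.4% of all genes were called. The mean log2 level of the hepatocyte list ran from 14.003 to 14.19 over the female arrays and from 13.99 to 14.16 over the male arrays. That of the Kupffer list ran from 8.94 to 10.93 in females and from 8.48 to 10.16 in males, that of the stellate list from 8.73 to 9.16 in females and from 8.35 to 9.18 in males, and that of the endothelial list from 8.20 to 8.75 in females and from 8.002 to 8.61 in males. The lowest value of any probe set was 2.05, so no marker could be at 0 and these levels do not show which markers were detected. The part of these lists in the sex differences was not tested. In such whole-tissue RNA, fewer cells of a type and less RNA per cell cannot be told apart.

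PB moved few of the carriers within a single sex and day. At 150 against 0, 2 of 9 rose in males on day 2, Slc22a26 and Slc10a1, where 4.9% of all genes were called and 2.5% as higher. None was called in females on day 2 (5.46% of all genes), females on day 7 (2.45%) or males on day 7 (3.04%); at an unadjusted p under 0.05, limma gave 1, 1 and 2 of 9 there. At 75, Slc22a26 was the 1 member that rose, in males on day 2 (0.44% of all genes, 0.363% as higher), and 0 of 9 passed in females on day 2 (0.451%), females on day 7 (0.764%) and males on day 7 (0.247%), with 0, 1 and 3 at an unadjusted p under 0.05. Over the 12 comparisons at 0.15, 1.5 and 15 there was 1 call, Slc22a26 in males on day 2 at 15, where 0.0385% of all genes were called, all higher. In the other 11 the share of all genes called was between 0% and 0.022% (at 15 in females), with 0.011% in males on day 7 at 15 and 0.0055% in males on day 7 at 0.15. No member was called as lower in any of these 20 comparisons. At an unadjusted p under 0.05, limma gave 2 of 9 in males on day 2 at 1.5 and at 15. It gave 1 of 9 in females on day 7 at 0.15 and in males on day 7 at 1.5 and at 15, and 0 in the rest of the 12. The shares of all genes here and below are at the adjusted threshold, and none was counted at an unadjusted p.

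**Figure D2:**
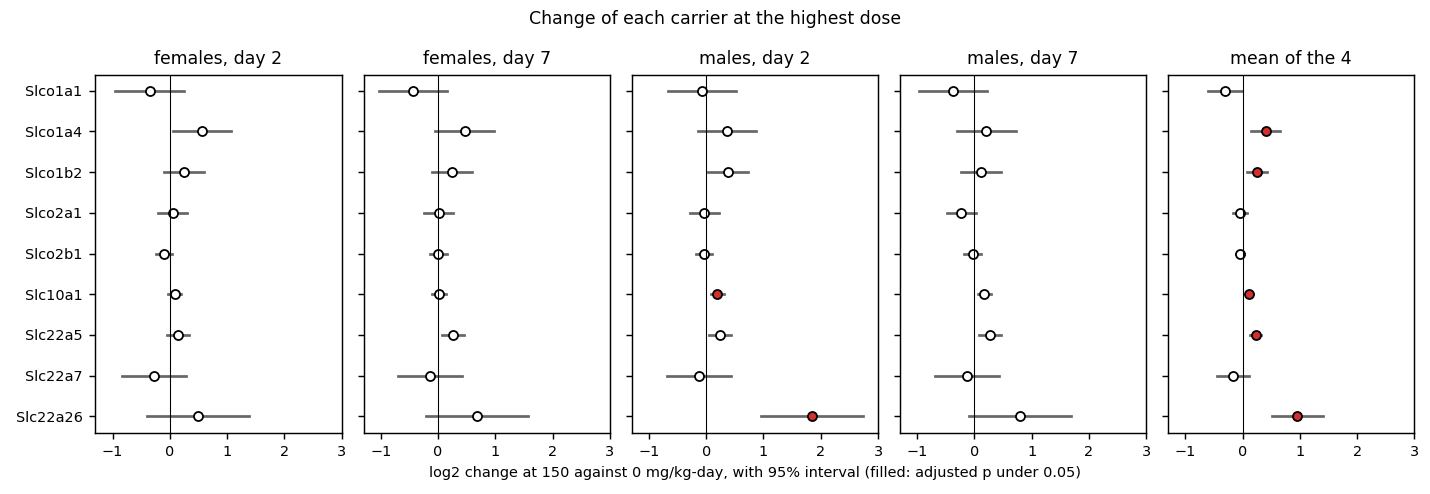
Log2 change of each carrier at 150 against 0 mg/kg-day in the 4 combinations of sex and day, and its mean over the 4. Points are limma estimates with 95% intervals, and filled points have an adjusted p under 0.05: Slc22a26 (1.84) and Slc10a1 (0.19) in males on day 2, and 5 genes in the mean.

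A change averaged over both sexes and days, added after the data had been seen, draws on 16 arrays at 150 and 16 at 0. By it 5 of 9 rose at 150, where 17.7% of all genes were called and 8.27% as higher. These were Slc22a26, by 0.95 (adjusted p = 0.000893), Slco1a4, by 0.40 (0.0178), Slco1b2, by 0.25 (0.0357), Slc22a5, by 0.23 (0.000204), and Slc10a1, by 0.12 (0.00146). The median change of the 9 members was 0.12, against -0.01 over all genes. At 75, 3 of 9 rose by the same average, Slc22a26, Slc22a5 and Slc10a1, against 8.92% of all genes and 5.36% as higher. Without the 2 arrays that went against their dose labels the same 3 were called at 75, Slc22a26 at 1.39, Slc22a5 at 0.18 and Slc10a1 at 0.09. The rise of Slc10a1 at 75, by 0.08 (adjusted p = 0.0487), was not called with quantile normalization (0.111), with the mean of its probe sets (0.0757) or with only the arrays compared (0.0660), and it held without 13 of the 32 arrays. The levels at 150 and 75 were also set against each other within each sex and day: no member was called, whereas 1.33% of all genes were in females on day 2, 0.148% in males on day 2, 0.055% in females on day 7 and 0.126% in males on day 7, and at an unadjusted p under 0.05 limma gave 0, 1, 0 and 1 of 9.

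The change at 150 was not shown to differ between the sexes or the days for any member. For females minus males of that change, 0 of 9 were called on day 2 (0.0055% of all genes) and on day 7 (0.0879%), and for day 7 minus day 2, 0 of 9 in females (0.874%) and in males (0.132%). At an unadjusted p under 0.05 limma gave 1 of these 36 differences, Slc22a26 between the sexes on day 2, at -1.35 (95% interval -2.61 to -0.09; adjusted p = 0.9997).

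Slc22a26 encodes an SLC22 carrier of a rodent gene cluster and was the member with the largest difference in all 3 comparisons of the sexes. At dose 0 on day 2 it was 10.60, 10.14, 10.11 and 10.62 in females, against 5.84, 5.59, 5.45 and 5.55 in males. On day 7 it was 10.30, 9.9997, 10.24 and 10.43 in females, against 5.11, 6.27, 6.08 and 5.74 in males. The sexes were thus separated by a wide gap on both days. The difference at dose 0 was 4.76 ± 0.45 (SE; adjusted p = 2.82e-13) on day 2 and 4.44 on day 7, or 27.0-fold and 21.7-fold. Sex accounted for 81.6% of its sum of squares over the 96 arrays and the spread within groups for 6.39%. A second Slc22a26 probe set differed in the same direction, with a correlation of 0.991 over the arrays. Its sex difference was larger, at 4.91 over all doses and days, against 4.04 for the first. At dose 0 it was 5.77 on day 2 and 5.49 on day 7, so the fold depends on the probe set. The male controls lay near the array medians of 5.35 to 5.44.

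The promoter of Slc22a26 is shown because the gene differed most between the sexes, and the capitals mark the letters TTCNNNGAA, a form that STAT5 proteins bind, searched on both strands. It is the 250 bases before the gene's start on the minus strand, chr19:7802668-7802917 (GRCm38.p6), taken from RefSeq. The letters occurred once, and in 7.02% of all 32851 promoters of that length. Such a match is a description and not a shown binding site. Slco1a4, Slco2a1 and Slc22a5, which also differed between the sexes, had no TTCNNNGAA in their 250 bases. Slco2b1 had it at 1 of its 3 starts, and Slc22a7 was not among the promoters. Whether the letters go with the sex differences was not tested.
Slc22a26: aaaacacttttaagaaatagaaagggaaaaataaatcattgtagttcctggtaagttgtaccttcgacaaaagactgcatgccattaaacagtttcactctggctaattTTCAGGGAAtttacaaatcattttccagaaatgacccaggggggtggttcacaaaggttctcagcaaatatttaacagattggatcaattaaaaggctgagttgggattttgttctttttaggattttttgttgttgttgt

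In males on day 2 Slc22a26 rose at 15, 75 and 150, and its treated arrays spread apart. At 1.5 the 4 arrays were 6.59, 7.14, 6.23 and 6.80, and at 15 they were 9.94, 8.03, 7.78 and 6.18. At 75 they were 7.24, 9.70, 10.15 and 7.60, and at 150 6.77, 6.13, 9.79 and 7.11. Every array from 1.5 upward lay above all 4 controls, while at 0.15, with 5.25, 6.81, 5.10 and 5.69, the groups overlapped. The pooled SD within groups was 0.65, above that of 98.8% of the genes brighter than the median, and the SDs at 15, 75 and 150 were 1.54, 1.47 and 1.61, against 0.17 at dose 0.

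By limma the rise was 2.37 ± 0.45 (SE; adjusted p = 0.00397) at 15, 3.06 (8.36-fold; adjusted p = 6.38e-06) at 75 and 1.84 (3.59-fold; adjusted p = 0.00525) at 150. The change at 1.5 was 1.08 and was not called (adjusted p = 0.998). These calls lean on the spread pooled over all 24 groups: with only the arrays of the groups compared, adjusted p was 0.801 at 15, 0.141 at 75 and 0.178 at 150. Without the 2 arrays that went against their dose labels the change at 15 was 1.72 and not called (adjusted p = 0.228), and that at 75 was 3.54 and called (adjusted p = 6.47e-09). Without replicate 3 at 150 the change there was 1.06 and not called (adjusted p = 0.159), and it was called without each of the other 7 arrays. An exact permutation test of 4 arrays against 4 gave its smallest two-sided p, 0.0286, at 1.5, 15, 75 and 150, or 0.0816 after adjustment over the 20 comparisons of Slc22a26.

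**Figure D3:**
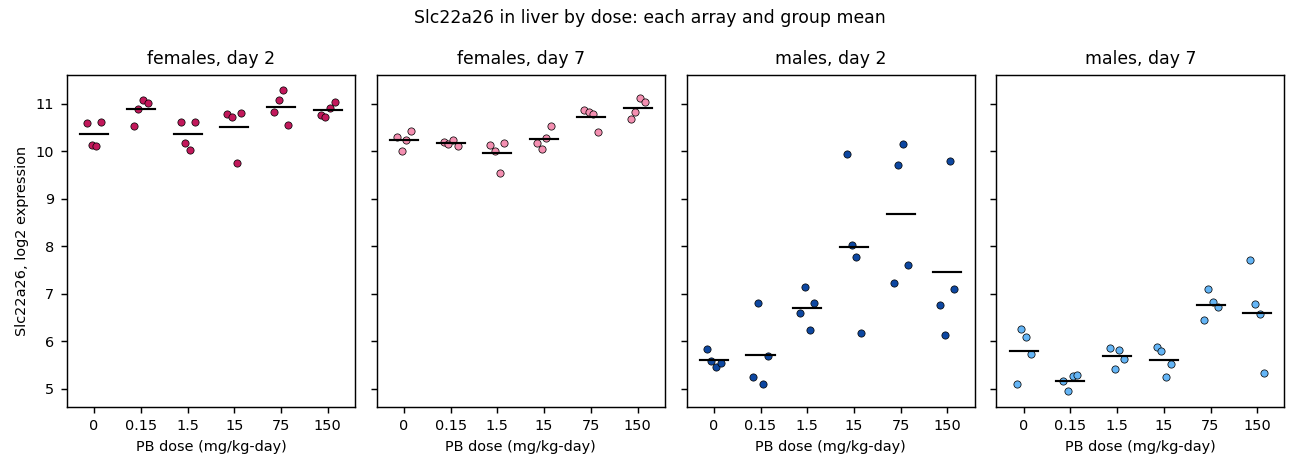
Log2 level of Slc22a26 by PB dose (mg/kg-day, evenly spaced) in females and males on days 2 and 7. Points are arrays and bars are means of 4. Female arrays lie between 9.54 and 11.30 throughout, and 4 male arrays of day 2, at 15, 75 and 150, reach the same range.

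Of the 48 male arrays, 4 lay inside the female range of Slc22a26, which ran from 9.54 to 11.30. All 4 were of day 2: replicate 1 at 15, at 9.94, replicates 2 and 3 at 75, at 9.70 and 10.15, and replicate 3 at 150, at 9.79. The first of these is the array labelled 15 whose Cyp2b10 went against its dose label. Xist was at most 5.89 on all male arrays. In males on day 7 the level was 6.44, 7.10, 6.82 and 6.73 at 75 and 7.72, 6.78, 6.58 and 5.33 at 150, so that the arrays at 75 lay above the controls (exact p = 0.0286, the smallest possible; adjusted over the 20 comparisons 0.0816) and those at 150 overlapped them. Neither change was called by limma, at 0.97 (adjusted p = 0.522) and 0.80 (adjusted p = 0.408).

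In females Slc22a26 was high at dose 0, and no change with PB was called. At 150 it was 10.76, 10.71, 10.91 and 11.04 on day 2 and 10.68, 10.83, 11.11 and 11.04 on day 7. All 4 arrays lay above the controls of the same day in both cases, by 0.49 and 0.67 on average, which limma did not call (adjusted p = 0.670 and 0.555). With only the arrays compared, in which the wide male groups do not enter the spread, the day 7 change was called (adjusted p = 0.0208). The exact permutation p was 0.0286 on each day, the smallest possible, and 0.0816 after adjustment over the 20 comparisons of Slc22a26.

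Slc22a26 lies in a run of related genes on chromosome 19, in the order Slc22a19, Slc22a26, Slc22a27, Slc22a28, Slc22a29, Slc22a30, Slc22a8 and Slc22a6 (RefSeq). Slc22a27 was 7.07-fold and Slc22a29 6.19-fold higher in females over all doses and days, whereas Slc22a30 was 1.44-fold lower in females. The difference of Slc22a19 was -0.04 (adjusted p = 0.226), and Slc22a28 was not analysed here. With PB, Slc22a27 rose by 0.76 at 150 averaged over sexes and days (adjusted p = 0.00160). Slc22a29 rose by 2.21 in males on day 2 at 75 (adjusted p = 0.0190) and by 1.98 in males on day 7 at 150 (adjusted p = 0.0146). These are close relatives in sequence, and whether one gene's RNA reaches another's probes was not tested.

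Over the 24 group means and among 9096 genes brighter than the median gene, the patterns most like Slc22a26 were those of Nt5e, which makes adenosine outside the cell (r = 0.981), Cyp2b9, a female-predominant P450 (0.973), and Slc22a27 (0.970). These correlations are descriptions, since all 24 points share the same sex gap. Within groups, after each group's mean was subtracted, the genes of the 48 male arrays most like Slc22a26 were the sulfotransferase Sult3a1 (r = 0.830), Slc22a27 (0.780) and Cyp2b9 (0.761), a list drawn up after the data had been seen. On the 4 male arrays with female-range Slc22a26, in the order given above, Cyp2b9 was 10.71, 8.24, 8.99 and 9.56, against 4.98, 5.87, 5.51 and 5.25 at dose 0. Cyp2b9 was thus above all day 2 male controls on each of them.

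**Figure D4:**
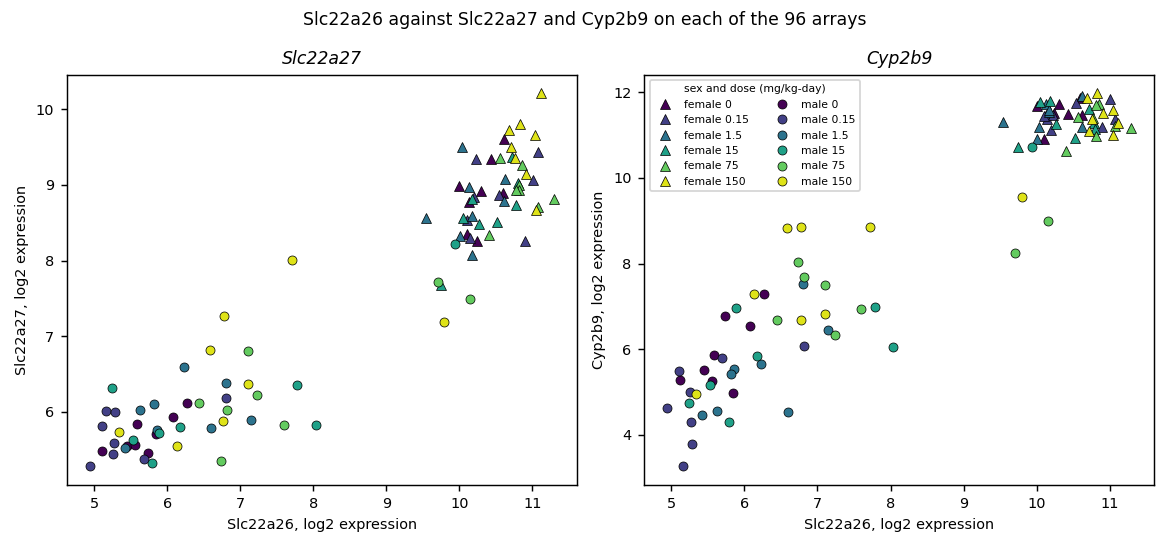
Log2 level of Slc22a27 (left) and Cyp2b9 (right) against that of Slc22a26 on each of the 96 arrays; triangles are females, circles males, and colour is the dose in mg/kg-day. Most males lie at the lower left and the females at the upper right, and 4 treated males with Slc22a26 between 9.70 and 10.15 lie next to the females.

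Slc10a1, the main carrier of conjugated bile salts into the hepatocyte, varied little, with a pooled SD of 0.08 within groups, lower than that of all but 2.30% of the genes brighter than the median. In males on day 2 it was 13.28, 13.24, 13.32 and 13.34 at 150, against 13.04, 13.16, 13.11 and 13.10 at dose 0. The groups did not overlap, and the rise was 0.19 ± 0.06 (SE), or 1.14-fold (adjusted p = 0.0333). That call ended with quantile normalization (adjusted p = 0.0833), with median centring (0.0734) and with only the arrays compared (0.204), and it held without 2 of the 8 arrays but not without each of the other 6. In males on day 7 it was 13.18, 13.22, 13.36 and 13.24 at 150, against 13.11, 13.12, 13.003 and 13.10 at dose 0, again without overlap but not called (change 0.17, adjusted p = 0.0886). In females the changes at 150 were 0.09 on day 2 and 0.02 on day 7, and the arrays of both days overlapped.

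Untreated females had more Slc10a1 RNA than untreated males on day 7, at 13.34, 13.42, 13.36 and 13.33, against 13.11, 13.12, 13.003 and 13.10 in males. The difference of 0.28 (1.21-fold) was called (adjusted p = 0.000489), and that of 0.19 on day 2 was not (adjusted p = 0.0642), though the arrays of the sexes did not overlap on either day. With only the arrays compared the day 7 call ended (adjusted p = 0.0521), whereas the day 2 difference was called among brighter genes only (0.0323), with the trended and robust variance (0.0458) and with array weights (0.0334). Over all doses females averaged 13.35 and males 13.18. A second probe set differed between the sexes by 0.16, close to the 0.17 of the first. The patterns most like it over the group means were those of the sulfotransferase Sult1d1 (r = 0.931), the alanine aminotransferase Gpt (0.926) and Hibch of valine breakdown (0.919).

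Of the 2 Slc10a1 starts in the RefSeq table, the one with the STAT5 letters is shown, with these letters in capitals: 250 bases on the minus strand, chr12:80968706-80968955 (GRCm38.p6). The other start had no TTCNNNGAA in its 250 bases and 1 AGGTCA, the half-site that CAR and other nuclear receptors bind, which 14.02% of all promoters hold.
Slc10a1: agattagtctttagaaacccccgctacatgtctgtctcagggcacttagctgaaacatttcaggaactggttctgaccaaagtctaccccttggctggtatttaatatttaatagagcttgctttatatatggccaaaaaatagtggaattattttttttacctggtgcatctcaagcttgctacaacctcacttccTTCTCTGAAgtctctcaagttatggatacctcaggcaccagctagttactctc

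Slco1a1 and Slco1a4, which lie side by side on chromosome 6 and both carry bile salts and steroid conjugates, differed between the sexes in opposite directions. Slco1a1 ran over the 48 female arrays from 9.03 to 12.30 (median 11.67) and over the 48 male arrays from 11.40 to 12.77 (median 12.39). Slco1a4 ran from 9.49 to 10.86 (median 10.22) in females and from 8.16 to 10.36 (median 9.35) in males. Slco1a1 was 1.69-fold lower in females (log2 difference -0.76 ± 0.09, SE; adjusted p = 9.22e-12), and Slco1a4 was 1.77-fold higher in females (0.82 ± 0.07; adjusted p = 5.70e-16). The ranges of the sexes overlapped for both genes. The male limits 11.40 and 10.36 are both of the array labelled male, day 2, 15, replicate 1, which went against its dose label. Without it the male limits are 11.74 for Slco1a1 and 10.14 for Slco1a4, and the ranges still overlap.

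**Figure D5:**
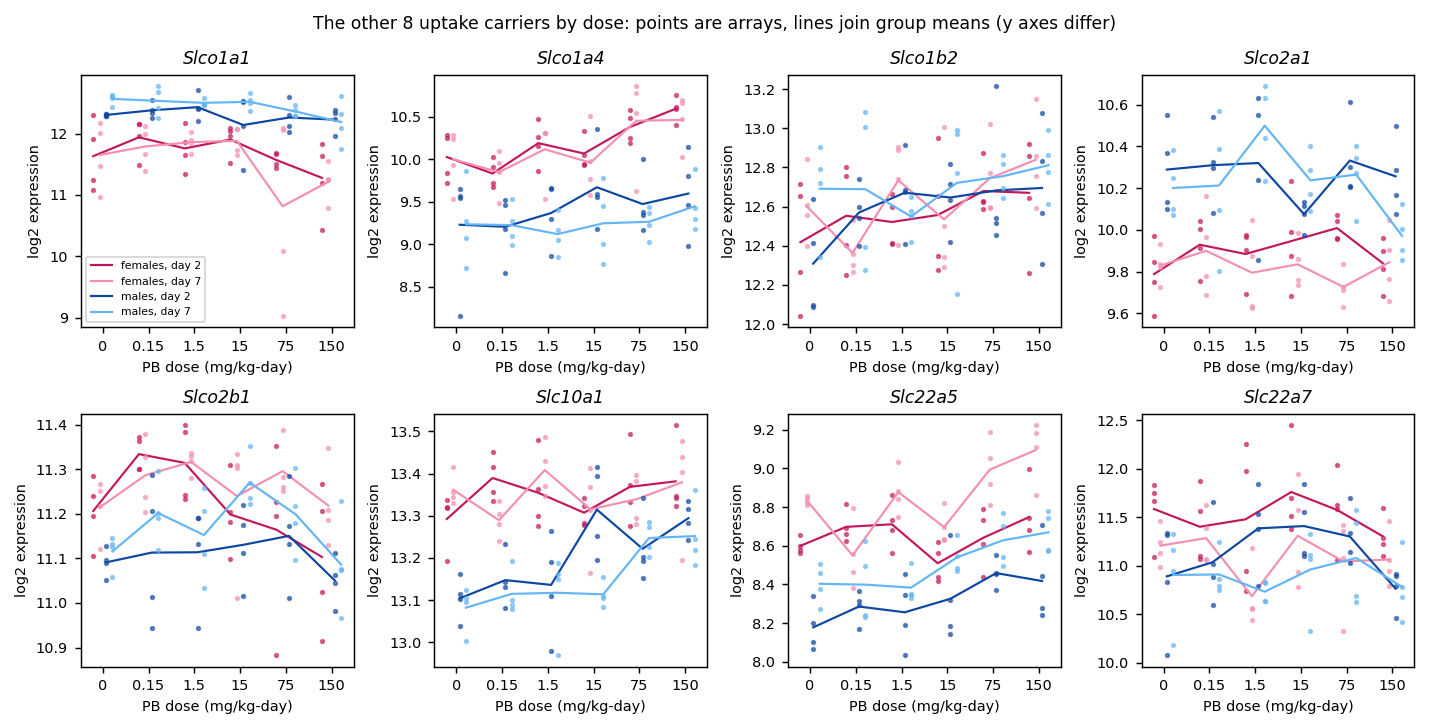
Log2 level of the other 8 carriers by PB dose (mg/kg-day, evenly spaced); points are arrays, lines join means of 4, and each panel has its own axis. Compared on the same day, female means lie below male ones at every dose for Slco1a1 and Slco2a1, above them at every dose for Slco1a4 and Slc22a5, and above them for Slc10a1 except at 15 on day 2. There the Slc10a1 mean is 13.315 in males and 13.307 in females. The male arrays behind it are 13.42, 13.25, 13.20 and 13.40, and the first of them went against its dose label.

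Slco1a1, a carrier known for its male predominance in mouse liver, was not called at any dose. At 150 its changes were -0.35 and -0.43 in females on days 2 and 7, and -0.08 and -0.38 in males on days 2 and 7, with an average of -0.31 (95% interval -0.61 to -0.01; adjusted p = 0.154). All 4 estimates had the same sign, but the arrays at 150 overlapped the controls each time. Female arrays scattered widely: at 75 on day 7 they were 10.08, 12.10, 9.03 and 12.05, against 11.47, 12.16, 10.96 and 12.003 at dose 0. Replicates 1 and 3 at 75 stood apart from the other 2, and the change of -0.83 was not called (adjusted p = 0.188), although it was when replicate 2 or replicate 4 at 75 was left out. Untreated males held to a narrow band, 12.29, 12.32, 12.29 and 12.32 on day 2, against 11.08, 12.30, 11.24 and 11.90 in untreated females. The patterns most like Slco1a1 over the group means were those of Hsd3b5, a male-predominant steroid enzyme (r = 0.946), Prkd3 (0.937) and Pnpla7 (0.929). A second Slco1a1 probe set followed the first with a correlation of 0.983.

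The Slco1a1 promoter is shown with AGGTCA or its reverse complement in capitals, since the gene differs between the sexes in the direction opposite to Slc22a26. Its 250 bases on the minus strand, chr6:141946963-141947212 (GRCm38.p6), held 2 such half-sites and no TTCNNNGAA.
Slco1a1: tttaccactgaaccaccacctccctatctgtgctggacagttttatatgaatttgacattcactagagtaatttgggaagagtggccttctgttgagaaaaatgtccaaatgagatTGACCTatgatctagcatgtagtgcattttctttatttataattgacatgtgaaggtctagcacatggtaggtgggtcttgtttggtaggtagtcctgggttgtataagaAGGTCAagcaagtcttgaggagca

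Slco1a4, a carrier known to respond to activators of CAR and PXR in mouse liver, rose by 0.40 at 150 in the average over sexes and days. In females on day 2 it was 10.60, 10.62, 10.76 and 10.41 at 150, against 10.25, 10.29, 9.73 and 9.84 at dose 0. These 8 arrays did not overlap, yet the change of 0.57 was not called on its own (adjusted p = 0.230). It was 0.46 in females on day 7, 0.37 in males on day 2 and 0.21 in males on day 7, with overlapping arrays in all 3. Male control replicate 4 of day 2, at 8.16, lay far below the other 3 controls, which were between 9.55 and 9.64, and without it the change in males on day 2 was 0.01. Without that array the average rise was 0.31 and not called (adjusted p = 0.0610), and it was called without each of the other 31 arrays. Its most similar patterns were those of the carboxylesterase Ces1c (r = 0.949), Papss2, which makes the sulfate donor of sulfation (0.943), and cyclin D1, Ccnd1 (0.935).

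Slco1b2, the counterpart of the human carriers of bilirubin and statins, was not called between the sexes and rose slightly at 150 in the average over sexes and days. In males on day 2 it was 12.31, 12.56, 13.08 and 12.83 at 150, against 12.10, 12.64, 12.09 and 12.42 at dose 0; the arrays overlapped, and the change of 0.39 was not called (adjusted p = 0.237). That average rise was 0.25 (95% interval 0.07 to 0.42). That call ended with quantile normalization (adjusted p = 0.0525) and held without 20 of the 32 arrays but not without each of the other 12. It held with the mean of all its probe sets (0.20; adjusted p = 0.0182), although the 5 differed. The one with a mean of 12.45, close to the 12.63 of the chosen one, had a correlation of only 0.30 with it and an average change of 0.08 (adjusted p over all probe sets = 0.367), whereas the one with a mean of 8.77 rose by 0.66 on average (0.00502) and by 1.22 in males on day 2 (0.0303). The other 2, with means of 4.52 and 4.31, had correlations of only 0.37 and 0.04 with the chosen one. Both means lay below the array medians of 5.35 to 5.44. The probe set with a mean of 4.31 was higher in females over all doses, by 0.11 (0.0390). The group means most like those of Slco1b2 belonged to the P450 Cyp4f15 (r = 0.823), Tmem205 (0.771) and the mitochondrial protease Lonp1 (0.754).

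Upstream of the start of Slco1b2, on the plus strand at chr6:141629268-141629517 (GRCm38.p6, RefSeq), the 250 bases held TTCNNNGAA, AGGTCA and AGTTCA once each on either strand, in capitals here. It is shown as the promoter with all 3, for the 1 member not called between the sexes; AGTTCA occurs in 11.84% of all promoters.
Slco1b2: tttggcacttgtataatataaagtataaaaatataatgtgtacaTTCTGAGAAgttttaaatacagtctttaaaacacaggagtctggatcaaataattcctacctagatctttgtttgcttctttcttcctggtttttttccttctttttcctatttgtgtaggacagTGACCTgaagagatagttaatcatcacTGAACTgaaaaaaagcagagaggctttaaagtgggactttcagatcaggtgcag

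Slco2a1, the prostaglandin transporter, is known from endothelium as much as from epithelium, and Slco2b1 carries steroid sulfates. At dose 0 on day 2 Slco2a1 was 9.97, 9.59, 9.75 and 9.85 in females, against 10.13, 10.10, 10.37 and 10.55 in males. The sexes did not overlap, and the difference of -0.50 (1.41-fold lower in females; adjusted p = 0.0139) was called, while that of -0.37 on day 7 was not (adjusted p = 0.0603). The day 2 call ended with only the arrays compared (adjusted p = 0.0919) and held without 6 of the 8 arrays (highest adjusted p 0.124), and the day 7 difference was called with quantile normalization (0.0396), among brighter genes only (0.0377) and with array weights (0.0166). All 4 of its probe sets were lower in females over all doses, by 0.31 to 0.39. Of the 10 endothelial markers none was called between the sexes at dose 0 on day 2, and over all doses and days 6 were higher and none lower in females. The part of endothelium in the Slco2a1 difference was not tested. At 150 its changes lay between -0.23 in males on day 7 and 0.05 in females on day 2, none called. The patterns most like Slco2a1 over the group means were those of Cul2 (r = 0.908), Tmcc1 (0.900) and Csad, an enzyme of taurine synthesis (0.898).

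Slco2b1 was 1.07-fold higher in females by its chosen probe set (adjusted p = 4.24e-05). With the mean of all its probe sets the difference was 0.03 and not called (adjusted p = 0.292), and the other 2 probe sets differed by 0.02 and -0.04. Its changes at 150 ran from -0.10 in females on day 2 to 0.00 in females on day 7, and the interval of the average, -0.11 to 0.03, was among the narrowest of the 9. The arrays of treated and control groups overlapped in all 4 comparisons at 150. Heatr1 (r = 0.882), Spata13 (0.864) and Iqgap2 (0.861) had the group means most like it.

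Slc22a5, the carnitine carrier, was higher in females at dose 0 on both days. On day 7 it was 8.83, 8.84, 8.86 and 8.81 in females, against 8.50, 8.38, 8.28 and 8.46 in males, and the sexes did not overlap. The difference was 0.43 ± 0.10 (SE; 1.35-fold; adjusted p = 0.00171), and on day 2 it was 0.42 (adjusted p = 0.00500). With PB it rose by 0.23 on average at 150. Its changes were of similar size in females on day 7 (0.26), males on day 2 (0.24) and males on day 7 (0.27) and 0.15 in females on day 2, none of them called alone. On day 7 the arrays at 150, 9.22, 9.11, 8.86 and 9.18 in females and 8.78, 8.75, 8.57 and 8.58 in males, lay above all controls of their sex. Dose and day each accounted for about as much of its sum of squares, 13.4% and 13.2%, and sex for 42.4%. The nearest patterns were those of Pik3ap1 (r = 0.921), the fatty aldehyde dehydrogenase Aldh3a2 (0.913) and Gpcpd1 (0.912).

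Slc22a7, a carrier of organic anions and nucleotides, was 1.23-fold higher in females over all doses (adjusted p = 0.00195), with wide overlap: it ran from 10.32 to 12.45 (median 11.27) in females and from 10.08 to 11.85 (median 10.98) in males. Neither difference at dose 0 was called, at 0.69 on day 2 and 0.30 on day 7 (adjusted p = 0.240 and 0.625). At 150 the changes were -0.28 and -0.14 in females on days 2 and 7 and -0.13 and -0.12 in males on days 2 and 7, none of them called, and the 95% interval of their average ran from -0.45 to 0.11. It had 1 probe set, and the spread within groups made up 59.2% of its sum of squares. Its group means were most like those of the desmosomal cadherin Dsg2 (r = 0.825), Svbp (0.823) and Fgl1 (0.817).

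The members varied largely apart from each other within groups. Over the 36 pairs, the strongest correlations of deviations from the group means were -0.42 between Slc10a1 and Slc22a7, 0.39 between Slc10a1 and Slc22a5 and -0.33 between Slco1b2 and Slco2a1, over 96 arrays that share their normalization; these are descriptions. Sex took 81.6% of the sum of squares for Slc22a26, between 41.2% and 53.6% for Slco1a1, Slco1a4, Slco2a1, Slc10a1 and Slc22a5, and 18.4%, 10.4% and 0.883% for Slco2b1, Slc22a7 and Slco1b2. Dose took between 3.30% and 13.4% in each of the 9.

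Other carriers of the 3 families, from a list of 38 with 32 measured, gave calls at 150 too. Averaged over sexes and days, 6 of 32 rose and none fell, where 17.7% of all genes were called and 8.27% as higher. These were Slc22a29 by 1.21, the ileal bile salt carrier Slc10a2 by 1.18 and Slc22a27 by 0.76. The others were the ergothioneine carrier Slc22a4 by 0.59, Slc22a18 by 0.25 and the renal organic anion carrier Slc22a6 by 0.12. The mean levels of Slc10a2, Slc22a4 and Slc22a6 over all arrays lay below the 6.46 of the median gene. That of Slc22a4, at 5.13, also lay below the array medians of 5.35 to 5.44. Without detection calls, how far these levels lie above background is not known. In males on day 7, the single sex and day with most calls, 3 of 32 rose, where 3.04% of all genes were called. These were Slc22a29 by 1.98, Slc22a4 by 0.69 (adjusted p = 0.00399) and Slc22a18 by 0.31 (adjusted p = 0.0474). In females on day 7, 2 of 32 rose (2.45% of all genes called), and in males on day 2, 1 (4.9%). In females on day 2 none passed (5.46%), and none of the 32 fell in these 4 comparisons. Slc10a2 rose by 1.52 in females on day 7 and by 1.44 in males on day 2. In females against males over all doses and days, 4 of 32 were higher and 5 lower, where 41.4% of all genes were called. Markers of liver cells moved at 150 as well. In the average in which 5 members rose, 6 of 10 stellate cell markers (median change of the list -0.20), 3 of 10 endothelial markers (-0.10) and 4 of 8 hepatocyte markers (-0.07) fell and none of these 3 lists rose, while 1 of 10 Kupffer cell and macrophage markers (0.16), 1 of 8 bile duct markers (-0.04) and 1 of 8 lymphocyte markers (0.02) rose and none fell. Clec4g and Tek of endothelium and Apob and Ahsg of hepatocytes fell, and Prom1 of bile ducts rose, in males on day 2, where Slc22a26 and Slc10a1 rose. In the other 3 combinations of sex and day, Stab2 and Clec4g fell in females on day 2, Ecm1 and Apoa1 in females on day 7, and Lrat, Reln, Dcn and Stab2 in males on day 7; Prom1 rose in all 3, and Cd5l, Adgre1 and Ptprc rose in males on day 7. The part of these in the members' changes was not tested.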

How the data were processed

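Liver RNA of 96 samples was measured on 1 single-colour array each. The deposited table holds log2 values, already normalized between arrays by the authors; how they did so, and the genome build, are not given in the sources used here. Per the labels' protocols, total RNA was extracted with Trizol, then amplified and biotin-labelled. Such normalization removes shifts that all genes of an array share.

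Groups follow the titles of the samples, which name sex, dose and day. Of 45101 probe sets, 64 controls of the maker were left out, 34945 carried 1 gene symbol, 932 several and 9160 none, the last 2 kinds staying unnamed. The probe set with the highest mean stood for a gene, and 9010 of 18193 genes had more than 1. One linear model held all 24 group means (limma 3.58.1, R 4.3.3; the package data.table, version 1.17.8), with 72 residual and 4.39 prior degrees of freedom, two-sided tests and Benjamini-Hochberg adjustment over all genes of a comparison; called means an adjusted p under 0.05. Arrays give no depth, and 4 arrays a group limit the precision. Exact permutation tests of Slc22a26 took 4 arrays against 4.

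The members and lists were chosen with earlier results of these data known. All members are named, with up to 5 called genes of the other carriers of the 3 families, the 3 genes most like each member over group means, and Cyp2b10, Cyp2c55, Cyp3a11 and Xist; Slc22a27, Slc22a29 and Slc22a30, the neighbours of Slc22a26, are named beside them, as are marker genes. Alternatives were another rule for probe sets, normalization again, median centring, brighter genes only, only the arrays compared, other variance and weight models, a replicate block, and each replicate left out. The procedure was tested on simulated data. Promoters are RefSeq's (GRCm38.p6) and 8 of 9 members were found there; Python 3.11.15, pandas 2.3.3 and matplotlib 3.10.9 were used for these and the figures.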

Additional observations from a re-analysis of the deposited data

Results flagged for a closer look

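Of the 216 groups of 4 arrays (9 carriers in 24 groups), 10 held an array whose gap to the nearest of the others exceeded Dixon's 95% critical share of the group's range, or 4.63% of the groups, where chance gives about 1 in 20. In 5 of them the array was low and in 5 high, and they were spread over 7 of the 9 genes.

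Slco1a4 was 8.16 in male control replicate 4 of day 2, against 9.55 to 9.64 on the other 3 arrays, and 9.54 in females at 1.5 on day 7, replicate 2, against 10.31 on the other 3. Slco1b2 was 13.22 in males at 75 on day 2, replicate 2, against 12.46 to 12.54, and 12.87 in females at 75 on day 2, replicate 3, against 12.59 to 12.63. Slc22a7 was 11.18 in females at 1.5 on day 7, replicate 4, against 10.44 to 10.56. Slc22a26 was 9.75 in females at 15 on day 2, replicate 3, against 10.71 to 10.80 on the other 3.

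The remaining 4 gaps were those of Slc10a1, Slco2b1 and Slc22a5. Slc10a1 was 13.51 in females at 150 on day 2, replicate 3, against 13.32 to 13.35, and 13.19 in female control replicate 3 of day 2, against 13.32 to 13.34. Slco2b1 was 11.01 in females at 15 on day 7, replicate 4, against 11.30 to 11.33. Slc22a5 was 8.51 in males at 1.5 on day 7, replicate 3, against 8.33 to 8.35.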

How the results depend on the processing

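No called change of a member turned its direction under any alternative. Of 2421 member values under the other settings, 2395 kept their side of the threshold, 16 lost their call and 10 gained one; of 3888 with 1 replicate left out, 3834 kept it, 48 lost it and 6 gained it. With only the arrays compared, 0 members were called in males on day 2 at 150 (2 in the full fit), 1 in females on day 7 at 150 (0), 0 in males on day 2 at 75 (1), 0 over the comparisons at 0.15, 1.5 and 15 (1), and 2 in females against males at dose 0 on day 7 (4); this fit has fewer samples to estimate the spread. In males on day 2 at 150, quantile normalization and median centring each left 1, and with brighter genes only 1 was called in males on day 7 at 150 (0). Without the 2 arrays that went against their dose labels, a choice made after seeing the data, 0 were called at 0.15, 1.5 and 15. With each replicate left out in turn, counts ran between 0 and 2 in males on day 2 at 150, 0 and 1 in females on day 7 at 75, 0 and 1 at 0.15, 1.5 and 15 (0 without male replicate 1 at 15 on day 2), and 0 and 1 for 150 against 75 (1 without male replicate 3 at 150 on day 2). The sex counts ran between 2 and 4 at dose 0 on day 2 and between 3 and 4 on day 7, and stayed at 8 over all doses. The cause of these shifts was not tested.

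The groups share replicate numbers, but nothing in the labels ties equal numbers together, and samples of equal number did not deviate together from their group means (median correlation 0.002 over 1104 pairs of arrays, range -0.37 to 0.42, against -0.003 for other numbers). With the number as a replicate block no count of members moved: 2 were called in males on day 2 at 150, 3 and 4 between the sexes at dose 0 and 8 over all doses.

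With 4 arrays a group, the SE of a log2 change within a sex and day was 0.45 for Slc22a26 and 0.06 for Slc10a1, so the size that could be called differed widely between members. The table gives no detection calls, so how far a value lies above background is not known.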
